A study of Mus musculus with 6 samples.

Results

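The genes of the plasminogen activation system were examined in cultured cardiac fibroblasts (CFs): Plau, which encodes the urokinase-type plasminogen activator uPA; Plat, which encodes the tissue-type activator tPA; Plaur, which encodes the uPA receptor uPAR; and the serpin genes Serpine2 and Serpinf1. Their rows were found by gene symbol, but the members were chosen with earlier results of these data known. They are 5 of the 19446 genes in the table of read counts. CFs had been grown by explant culture from atria of C57BL/6J mice and sequenced as 3 wild type (WT) and 3 CharmeKO libraries from animals labelled 5 weeks old. In CharmeKO mice a polyadenylation signal is inserted in the locus of Charme, a long non-coding RNA needed for heart development, and the labels name no other difference between the groups. Per the study's methods, explants came from atria of 6 littermate animals and were kept on fibronectin with serum-containing medium, which all 6 libraries share. Those methods give the age of these animals as a range around the labelled 5 weeks. How cultures and litters map to libraries is not stated, so p-values measure the spread between these libraries, which may be partly technical.

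uPA and tPA are serine proteases that cut the inactive precursor plasminogen into plasmin, a protease that degrades fibrin and several matrix proteins. uPAR holds uPA at the cell surface, where plasmin can release growth factors and activate matrix metalloproteinases. Serpins are a family of proteins that mostly inhibit serine proteases by trapping them in a covalent complex. Serpine2 (protease nexin-1) inhibits thrombin as well as uPA and tPA. Serpinf1 (pigment epithelium-derived factor, PEDF) has the serpin fold but is known as a secreted anti-angiogenic factor that does not inhibit proteases, so the description "serpin inhibitor" applies to Serpine2 and not to Serpinf1. In fibroblasts the system is known for its part in matrix turnover and cell migration.

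Each gene has a single locus, given here on GRCm38 from the GENCODE M21 annotation. Plau lies on chromosome 14 (20836660 to 20843385, plus strand) and Plat on chromosome 8 (22757727 to 22782844, plus strand). Plaur lies on chromosome 7 (24462484 to 24475968, plus strand). Serpine2 lies on chromosome 1 (79794197 to 79861180, minus strand) and Serpinf1 on chromosome 11 (75409769 to 75422701, minus strand). None of the 5 overlaps another annotated gene on either strand, and the counted reads are those of the whole gene's exons.

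Promoter sequences from RefSeq (GRCm38.p6) were matched for 3 of the 5 genes, Plaur, Serpine2 and Serpinf1; Plau and Plat were not matched. All promoters that were matched are shown. The 170 bases before each RefSeq transcription start are printed 5′ to 3′ on the gene's strand, from chr7:24462313-24462482 (plus) for Plaur, chr1:79858666-79858835 (minus) for Serpine2 and chr11:75422624-75422793 (minus) for Serpinf1. Capitals mark matches, on either strand, to the AP-1 element TGANTCA or the GC box GGGCGG, and some neighbouring GC boxes abut or share a base.
Plaur: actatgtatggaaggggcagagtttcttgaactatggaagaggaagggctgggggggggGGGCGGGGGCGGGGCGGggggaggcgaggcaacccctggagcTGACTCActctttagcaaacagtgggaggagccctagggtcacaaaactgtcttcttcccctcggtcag
Serpine2: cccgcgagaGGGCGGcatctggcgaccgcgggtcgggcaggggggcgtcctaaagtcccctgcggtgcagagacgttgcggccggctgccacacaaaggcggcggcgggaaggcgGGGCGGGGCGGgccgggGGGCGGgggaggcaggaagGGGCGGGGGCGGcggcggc
Serpinf1: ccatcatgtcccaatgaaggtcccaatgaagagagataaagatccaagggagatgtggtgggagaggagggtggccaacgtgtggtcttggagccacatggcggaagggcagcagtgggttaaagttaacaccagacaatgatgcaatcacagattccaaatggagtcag

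Over the full windows of 300 bases (250 before and 50 after the start), the Plaur promoter held 1 AP-1 element, which begins 69 bases before the start, and 3 GC boxes. AP-1 is the Fos and Jun dimer, and its element occurred in 7.81% of the 32851 promoters of the same length. The Serpine2 promoter held 6 GC boxes, the element bound by Sp1 and related factors, which occurred in 35.7% of all promoters, and no AP-1 element. The Serpinf1 window held neither. The TATA box letters TATAAA, present in 13.6% of promoters, were absent from all 3 windows. The promoters also differed in base composition: Serpine2 had 77.7% GC with 41 CpG dinucleotides, Plaur 59.3% with 7, and Serpinf1 50.7% with 3, against medians of 52.7% and 7 over all promoters. These matches describe letters in a window and not bound sites.

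The libraries held 38330019 to 46797446 recovered reads assigned to genes, and the lowest value of any member was 629 reads, for Plaur in CharmeKO 2. Charme was read from the row CUFF405, taken to be the added Charme feature, which had 5, 15 and 11 reads in WT 1 to 3 and 0, 6 and 3 reads in CharmeKO 1 to 3. Charme thus had few reads in the cultured cells of either group, and the groups overlapped, so these counts do not verify the genotype. All 10 fibroblast markers were detected and summed to 25409 to 53797 CPM (counts scaled to the library total). Most of that sum came from Col1a1, Col1a2, Col3a1 and Vim, while Tcf21 had 5.07 to 41.0 CPM and Postn 12.9 to 243 CPM. The 10 endothelial markers, of which 7 were measured, summed to 1.88 to 9.22 CPM. The 10 cardiomyocyte markers, of which 4 were measured, summed to 3.30 to 18.6 CPM. Macrophage markers summed to 194, 119 and 45.8 CPM in WT 1 to 3 and to 414, 330 and 25.2 CPM in CharmeKO 1 to 3, with Lyz2 at 6.84 to 298 CPM, Ptprc at 0 to 5.93 CPM and 1 of the 10 markers at 0 in WT 3 and in CharmeKO 3. WT 3 stood apart in smooth muscle and pericyte markers, with 730 CPM against 86.9 to 185 in the other libraries, and both libraries numbered 1 in mesothelial markers, with 328 and 368 CPM against 25.4 to 146. Of the mesothelial markers, Msln, Upk3b, Upk1b and Lrrn4 were highest in the libraries numbered 1. Wt1 (38.3 CPM), Bnc1 (53.5 CPM) and Krt18 (1.93 CPM) were highest in CharmeKO 2, and Krt19 (18.5 CPM) in WT 3. Schwann cell and neural markers summed to 3.65 to 36.3 CPM. Because these are bulk cultures, fewer cells of a type and less RNA per cell cannot be told apart.

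The main comparison asked whether loss of Charme changes the mRNA levels of the system in cultured CFs. It did not do so detectably with 3 libraries per group. With limma on log2(value + 1) over 15948 genes, 0 of the 5 members passed an adjusted p of 0.05, as did 0 of all genes (0%), and each member's adjusted p was 0.9999. With all 6 libraries and no block, no member had an unadjusted p under 0.05 with limma, edgeR or DESeq2, while 143 genes of the table did with limma, 158 with edgeR and 286 with DESeq2. Once the model held the replicate number as a block, these became 857, 768 and 891 genes, and 1 member was among them, Plat with DESeq2 (unadjusted p = 0.043, adjusted p = 0.81, range 0.80 to 1 over its alternatives). DESeq2 called 8 genes (0.0502%) past the adjusted threshold and 64 (0.401%) with the block, and no member was among them. None of the 5 differed by 1 log2 unit or more, against 5.04% of all genes, and in all 5 the values of the groups overlapped, whereas groups did not overlap in 4.11% of all genes.

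**Figure D1:**
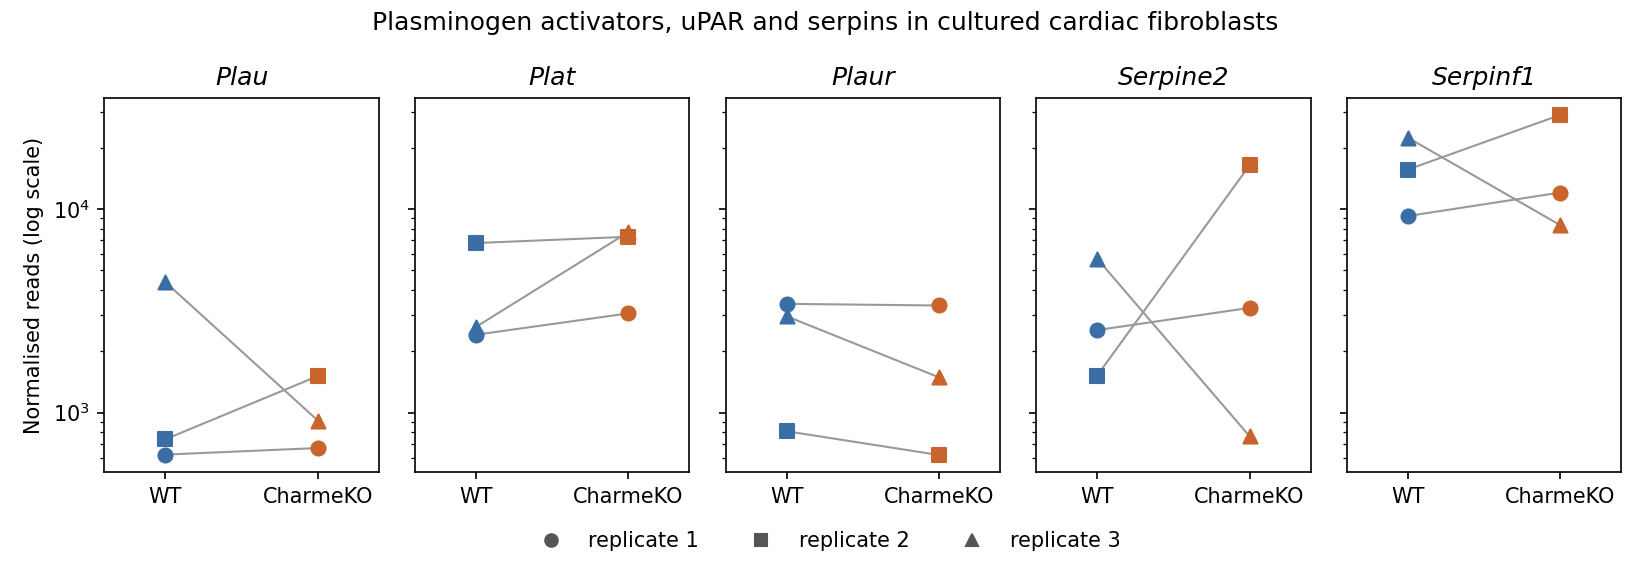
Normalised reads (log axis) of the 5 genes in each library, WT in blue and CharmeKO in orange, with grey lines joining libraries of the same replicate number. Groups overlap in every panel, the Plaur lines all slope downwards and the Plat lines upwards, and Serpine2 crosses between 764.5 and 16356 normalised reads.

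Among the activators, Plau had 621.4, 738.8 and 4363 normalised reads in WT 1 to 3 and 669.2, 1510 and 912.4 in CharmeKO 1 to 3. Normalised reads are read counts divided by a size factor for the library. WT 3 was higher than every other library, and all 3 CharmeKO libraries lay between WT 1 and WT 3. The group means were 1908 ± 2127 (SD, n = 3) in WT and 1031 ± 433 in CharmeKO, and the log2 difference, CharmeKO minus WT, was -0.37 with a standard error of 0.76 and a 95% interval of -2.21 to 1.46. The estimate rested on WT 3: without it the difference was 0.52. It was -0.88 by edgeR and -0.89 by DESeq2, and -0.33 by either with the replicate block. WT 3 was also the library with the high smooth muscle and pericyte marker sum. In it 7 of the 10 markers were highest, with Cnn1 at 347 of the 730 CPM, whereas the other 3, Rgs5, Kcnj8 and Notch3, were highest in WT 2. Their part in the Plau value was not tested.

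Plat had 2410, 6792 and 2632 normalised reads in WT 1 to 3 and 3067, 7293 and 7689 in CharmeKO 1 to 3. WT 2, CharmeKO 2 and CharmeKO 3 formed the high libraries, and WT 1, WT 3 and CharmeKO 1 the low ones. The WT mean was 3945 ± 2468 and the CharmeKO mean 6016 ± 2562, a log2 difference of 0.67 (standard error 0.52, 95% interval -0.58 to 1.91). By limma this was the largest difference of the 5 in size, and 89.1% of all genes had a smaller one, whereas by edgeR and DESeq2 without a block Serpine2 (1.07 and 1.07) and Plau differed more than Plat (0.61 and 0.60). Within same-numbered pairs the difference was positive each time, at 0.35, 0.10 and 1.55, a pattern found in 16.4% of all genes. With the replicate number as a block the standard error fell to 0.31, and Plat still missed the threshold (limma, unadjusted p = 0.091, adjusted p = 0.80, with a range of 0.80 to 1 over all alternatives). Most of the estimate came from the pair numbered 3.

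The receptor gene Plaur went the other way within pairs. It had 3415, 809.3 and 2968 normalised reads in WT 1 to 3 and 3353, 618.4 and 1488 in CharmeKO 1 to 3. The libraries numbered 1 were the highest of their groups and those numbered 2 the lowest. The means were 2398 ± 1394 in WT and 1820 ± 1397 in CharmeKO, and the log2 difference was -0.47 (standard error 0.77, 95% interval -2.31 to 1.37). The difference was negative in all 3 pairs, at -0.03, -0.39 and -0.996, which was so in 14% of all genes. With the block the standard error was 0.21 and the adjusted p 0.80 (limma, unadjusted p = 0.079), again with a range of 0.80 to 1 over all alternatives. Leaving out CharmeKO 2 turned the unpaired difference to 0.15. Macrophages also express uPAR. Their marker sum was highest in CharmeKO 1 and CharmeKO 2, of which the first had high and the second the lowest Plaur. In CharmeKO 2, Lyz2 made up 267 of the 330 CPM. Ptprc, Cd68, Csf1r, Adgre1, Fcgr1 and Tyrobp were higher in WT 1, which had the highest Plaur, than in CharmeKO 2. Lyz2, Cd14, C1qa and C1qb were lower in WT 1 than in CharmeKO 2. The part of macrophages in the Plaur values was not tested.

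Serpine2, the inhibitor of thrombin and of both activators, varied most. It had 2539, 1517 and 5697 normalised reads in WT 1 to 3 and 3264, 16356 and 764.5 in CharmeKO 1 to 3. The highest and the lowest of the 6 libraries were both CharmeKO, 21.4-fold apart, and the range was wider than in 95% of all genes. The WT mean was 3251 ± 2179 and the CharmeKO mean 6795 ± 8374, a log2 difference of 0.30 (standard error 1.09, 95% interval -2.33 to 2.92). Within pairs the difference was 0.36, 3.43 and -2.90. The sign of the estimate depended on single libraries, being -0.14 without WT 2 and -0.83 without CharmeKO 2, and edgeR gave 1.07 without the replicate block and 0.33 with it. CharmeKO 3, the lowest library, also had the lowest macrophage, endothelial, mesothelial and Schwann cell marker sums, and CharmeKO 2, the highest, had the highest sum of none of the lists. Their part in the Serpine2 values was not tested.

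Serpinf1 was the most abundant of the 5. It had 9215, 15577 and 22387 normalised reads in WT 1 to 3 and 12019, 28885 and 8319 in CharmeKO 1 to 3. As for Serpine2, CharmeKO 2 was the highest library and CharmeKO 3 the lowest, here 3.47-fold apart. The means were 15726 ± 6587 in WT and 16408 ± 10963 in CharmeKO, and the log2 difference was -0.05 (standard error 0.53, 95% interval -1.32 to 1.22). Pairs gave 0.38, 0.89 and -1.43. The estimate changed sign without WT 3 (0.25), without CharmeKO 1 (0.07) or without CharmeKO 3 (0.34), and was 0.07 by edgeR and 0.06 by DESeq2.

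**Figure D2:**
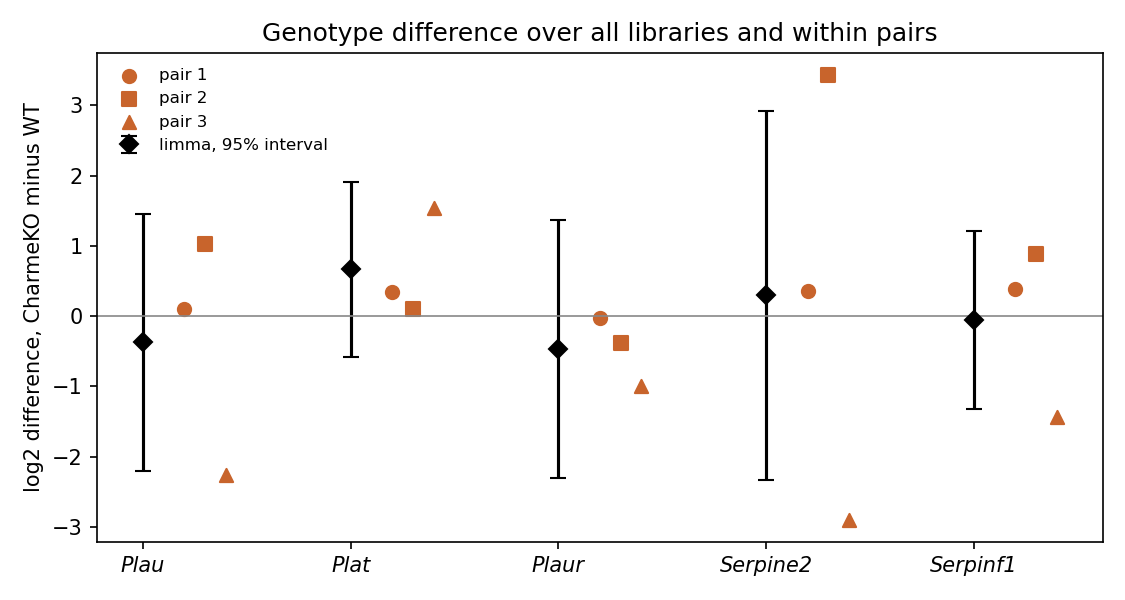
Log2 difference (CharmeKO minus WT) of each gene from limma over all 6 libraries (black diamonds, bars are 95% intervals) and within the 3 same-numbered pairs (orange symbols). Every interval spans 0, and the pair numbered 3 lies farthest below 0 in Plau, Plaur, Serpine2 and Serpinf1 and farthest above it in Plat.

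The pair numbered 3 had the largest difference in size in Plau, Plat, Plaur and Serpinf1, and the pair numbered 2 in Serpine2. Plau, Plaur, Serpine2 and Serpinf1 were lower in CharmeKO 3 than in WT 3, and Plat was higher. The pair numbered 2 went the other way from the pair numbered 3 in Plau (1.03), Serpine2 (3.43) and Serpinf1 (0.89). In the pair numbered 1 the 5 differences lay between -0.03 and 0.38. Whether CharmeKO 3 and WT 3 form a true pair is uncertain, because CharmeKO 3 correlated about as closely with WT 2 (r = 0.953) as with WT 3 (r = 0.951). The share of the variance of log2(value + 1) that went with the replicate number differed between the members. It was 90.4% for Plaur, above the median of 73.8% over all genes, and lay below that median for Plat (59.9%), Plau (46.4%), Serpinf1 (41.2%) and Serpine2 (13.7%). Genotype took 21.1% of the variance of Plat, 5.60% of Plaur, 3.63% of Plau, 1.14% of Serpine2 and 0.16% of Serpinf1, where the median gene had 5.91%. In Serpine2, 85.2% of the variance followed neither. With so few libraries, noise alone also gives genotype and replicate number a share, so these shares are a description and not a measure of effect.

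**Figure D3:**
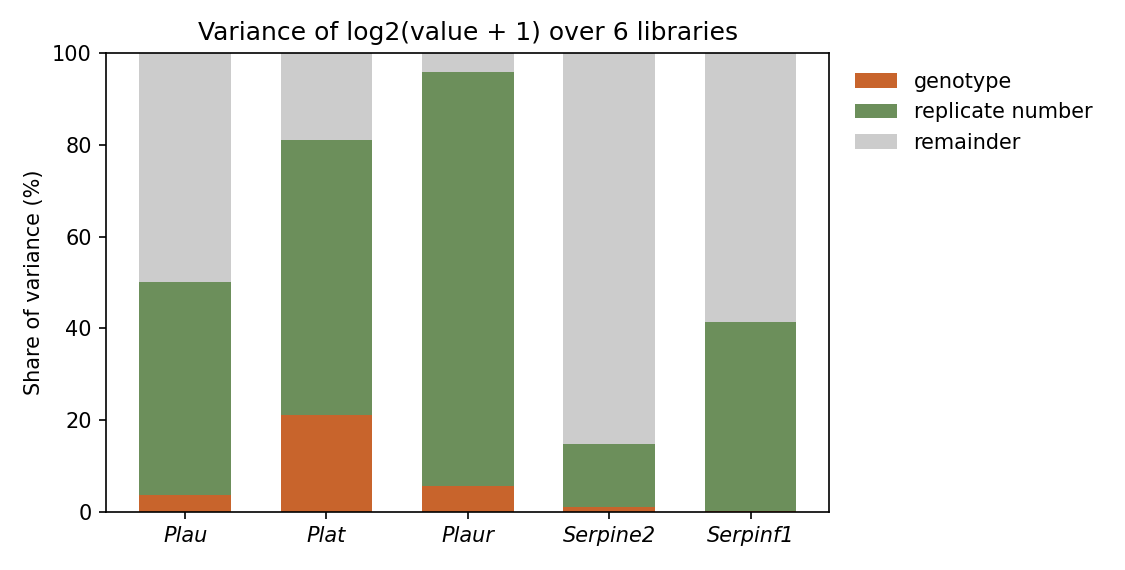
Share of the variance of log2(value + 1) over 6 libraries, in percent, by genotype (orange), replicate number (green) and remainder (grey). Replicate number takes 90.4% for Plaur and 13.7% for Serpine2.

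Levels were compared between genes per kilobase of annotated exon, joined over all transcripts, on the scale of normalised reads. Serpinf1 had 6811 ± 3433 (SD over 6 libraries) and ranked 204 of 15914 genes. It was above each other member in all 6 libraries, by 2.86-fold to 51.8-fold. Below it came Plaur with 806 ± 492, Plat with 798 ± 404, Plau with 621 ± 614 and Serpine2 with 606 ± 701. None of these neighbours in the order differed beyond its spread: Plaur exceeded Plat in 3 of 6 libraries, Plat exceeded Plau in 5, and Plau exceeded Serpine2 in 3. The joined exon lengths of Serpine2 (8287 bases, 6 transcripts) and Plat (6241 bases, 3 transcripts) are the longest, which lowers both levels on this scale.

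The balance between activators, receptor and inhibitors was compared as log2 ratios of normalised reads plus 1 within each library, 3 ratios in all. Plau to Plaur was -2.46, -0.13 and 0.56 in WT 1 to 3 and -2.32, 1.29 and -0.71 in CharmeKO 1 to 3. The groups overlapped and differed by 0.10 (two-sided exact permutation test, p = 0.9, adjusted p = 0.9). Plau to Plat was -1.95, -3.20 and 0.73 in WT and -2.19, -2.27 and -3.07 in CharmeKO. WT 3 was the only library with more reads of Plau than of Plat. The difference of -1.04 (exact permutation test, p = 0.5, adjusted p = 0.9) became 0.06 without it. Plat to Serpine2 was -0.08, 2.16 and -1.11 in WT and -0.09, -1.17 and 3.33 in CharmeKO, with a difference of 0.37 (exact permutation test, p = 0.9, adjusted p = 0.9). The sign of this ratio was opposite between genotypes in the pairs numbered 2 and 3. With 3 against 3 libraries the smallest p this test allows is 0.1.

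**Figure D4:**
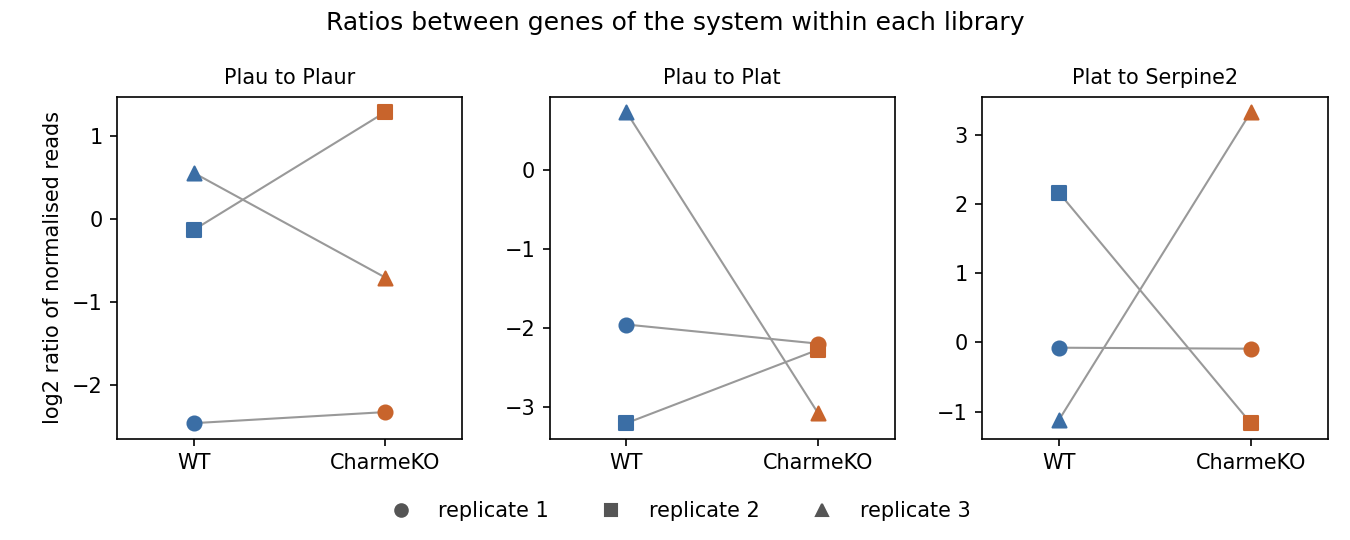
Log2 ratios of normalised reads between genes in each library, WT in blue and CharmeKO in orange, with grey lines joining libraries of the same replicate number; each panel has its own axis. Groups overlap in every panel, and WT 3 is the only library with Plau to Plat above 0.

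The members did not share a profile over the libraries. Likeness was measured as the root mean square difference between centred log2(value + 1) profiles over the 6 libraries. Plau and Serpinf1 were the closest pair of members, at 0.72, and Plaur and Serpine2 the farthest apart, at 1.86. Serpine2 lay at 0.92 from Serpinf1, and Plat at 0.90 from Serpinf1. Over 11543 genes with enough reads, the nearest to Plat were Nrbp2 at 0.13, Abca1, the cholesterol exporter, at 0.13 and Rad9b at 0.19. The nearest to Plaur were Rnf128 at 0.13, the beta-tubulin gene Tubb2b at 0.14 and Clspn, which encodes the replication checkpoint protein claspin, at 0.16. The nearest to Serpinf1 were Rgs2, a regulator of G protein signalling, at 0.16, Gpm6b at 0.18 and Pou2af3 at 0.21.

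Plau and Serpine2 had no neighbour as close as those. The nearest to Plau were the alkaline phosphatase gene Alpl at 0.37, Gng8 at 0.39 and Npas4 at 0.40. Alpl had 83.71, 95.03 and 733.9 normalised reads in WT 1 to 3 and 75.95, 379.5 and 153.9 in CharmeKO 1 to 3, so that it too was highest in WT 3 and, among CharmeKO, in CharmeKO 2. The nearest to Serpine2 were Vax2 at 0.35, Ccbe1, a secreted factor of lymphatic growth, at 0.41 and the matricellular gene Thbs2 at 0.47. Thbs2 had 7988, 9269 and 19622 normalised reads in WT 1 to 3 and 12893, 129351 and 3418 in CharmeKO 1 to 3, the same highest and lowest libraries as Serpine2. These 6 points share libraries and depth, and the likeness is a description.

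The wider system was read from a list of 58 other genes by role, of which 48 were measured and 45 passed the filter on low reads. None of the 45 passed the adjusted threshold with limma, edgeR or DESeq2, with or without the block. Without the block, the number at an unadjusted p under 0.05 was 0 with limma, 0 with edgeR and 1 with DESeq2 (Itga5). With the block it was 5 with limma, 5 with edgeR and 9 with DESeq2, against 857, 768 and 891 of all 15948 genes. The 5 were the same with limma and edgeR: Itgav and Egfr, named after their values had been seen, Pdgfc, Tfpi and Pnpla2. Itgav, an integrin chain, had a limma difference of -0.47 and Egfr, the epidermal growth factor receptor gene, one of 0.36, and the blocked adjusted p was 0.80 for each with limma and 0.15 and 0.28 with DESeq2. Differences were negative for 32 and positive for 13, with a median of -0.17 where the median of all genes was 0.002, and 5 of the 45 reached 1 log2 unit (5.04% of all genes). In all 3 pairs 11 were lower in CharmeKO (14% of all genes) and 5 higher (16.4%). Plg itself, the plasminogen gene, had no row under its symbol in the deposited counts and so was not analysed.

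Among plasmin targets, 5 of 6 tested genes had negative differences, and 4 were lower in all pairs. Genes were named by the size of their difference among those with a mean of at least 100 normalised reads. Pdgfd, a growth factor that plasmin and uPA activate, had -0.98 (standard error 0.70), the hepatocyte growth factor gene Hgf -0.44 (0.87) and Pdgfc -0.41 (0.39). F2rl1, with a mean of 16.2 and so outside that rule, had -1.17 (1.08). Of the uPAR partners, which are mostly integrin chains, 9 of 10 had negative differences and 5 were lower in all pairs. Itga5, a chain of the fibronectin receptor, had 9494, 6429 and 37582 normalised reads in WT 1 to 3 and 9323, 4095 and 6561 in CharmeKO 1 to 3. Its difference of -1.06 (0.68) rested mostly on WT 3, the highest library. Itgb3 had -0.67 (0.48) and Itgb1 -0.55 (0.56). The endocytic collagen receptor Mrc2, singled out after its values had been seen, was the only one of the 45 genes whose groups did not overlap (4.11% of all genes did not), with 50551, 49344 and 61393 normalised reads in WT and 49202, 46570 and 46354 in CharmeKO and a difference of -0.18 (0.23).

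Of the other inhibitors, Serpinb2 (PAI-2), which inhibits uPA, had 309.2, 365.2 and 440.5 normalised reads in WT 1 to 3 and 242.3, 288.1 and 7123 in CharmeKO 1 to 3. Its difference of 1.11 (standard error 1.25) therefore came from CharmeKO 3 alone, where Serpine2 was lowest. Serpini1 (neuroserpin), a tPA inhibitor, had 0.29 (0.79). The surface proteins that bind plasminogen or tPA had differences between -0.40 and 0.15, with Eno1 at -0.40 (0.59), Plgrkt at 0.15 (0.22) and S100a10 at -0.14 (0.72).

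Lrp1, the receptor that clears activator and inhibitor complexes, had 143501, 221065 and 203201 normalised reads in WT 1 to 3 and 131070, 189413 and 200938 in CharmeKO 1 to 3. Its difference of -0.12 (standard error 0.41) was small in size, and the pairs gave -0.13, -0.22 and -0.02. The clearance receptors of the same family or function Lrp2, Sorl1 and Vldlr had -0.98 (0.89), 0.54 (1.74) and -0.20 (0.31), and the list was split 3 to 3 in direction. All 7 tested genes of other proteases and coagulation had negative differences, as did 7914 of all 15948 genes. Those of F3 (-0.008) and St14 (-0.04) were the smallest in size. Of the 7, 1 was lower in all 3 pairs (14% of all genes). In this list the inhibitor Tfpi2 had -1.51 (1.76), Tfpi -0.48 (0.34) and Procr, the endothelial protein C receptor, -0.30 (0.34). Tfpi2 had 4 reads in CharmeKO 3 and 520 in CharmeKO 1. Among proposed PEDF receptors and partners, Plxdc2 had -1.06 (0.86), Pnpla2 0.37 (0.31) and Plxdc1 -0.19 (1.16). Without the block the limma adjusted p of each of these genes was 0.9999.

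The serpin family at large held 34 genes in the table, of which 27 were tested and 0 passed the threshold, with 0 at an unadjusted p under 0.05 by limma, edgeR or DESeq2 without the block and 1, Serpinb6c, by DESeq2 with it. Differences were positive for 17 and negative for 10, with a median of 0.19 over the 27, and 3 reached 1 log2 unit (Serpinb2, Serpinb6c and Serpind1), as did 5.04% of all genes. The members Serpine2 (0.30) and Serpinf1 (-0.05) lay inside the family's range of -1.44 to 1.74. Serpina3n, an acute phase serpin, had 8721, 14829 and 10524 normalised reads in WT and 10656, 48198 and 10672 in CharmeKO, with its highest value in CharmeKO 2 as in Serpine2 and a difference of 0.67 (standard error 0.61). Serpinb6b had 0.68 (0.83), Serpina3i 0.56 (1.02) and Serpinb6c -1.44 (2.08). Serpinb6 and Serpina3 genes have close copies, and reads that fit several of them would be dropped from the counts. Serpind1, singled out after its values had been seen, was the family's only gene with groups that did not overlap (4.11% of all genes), on 0 to 14 reads per library.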

How the data were processed

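RNA-seq of cultured CFs was analysed in 3 WT and 3 CharmeKO libraries, grouped and numbered by their titles. The deposited values are a signal of read counts per gene divided by a DESeq2 size factor per library. The authors had aligned reads with STAR and counted the reverse strand of a directional poly(A) library with STAR's gene counting, after adding Charme to the annotation. Their methods name GRCm39, the submitters' processing notes name GRCm39 and GRCh38, tool versions are not given in the sources used here, and the table holds no coordinates, so positions and exon lengths were taken from GENCODE M21. STAR's counting drops reads that fit several places. Values were whole multiples of each library's smallest one, so reads were recovered by division (100% of 116676 values whole within 1e-06).

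The 15948 genes that reached 10 reads in 2 or more libraries were tested with limma 3.58.1 (R 4.3.3, mean-variance trend, two-sided, genotype only) on log2(value + 1), a scale that understates the change of low genes, with Benjamini-Hochberg adjustment over all of them. edgeR 4.0.16 and DESeq2 1.42.0 on the recovered reads, other pseudocounts, filters and scalings, a replicate block and leaving out each library were the alternatives, and the code was tested on simulated data. Deviations of same-numbered libraries from their group means correlated with r = 0.762, 0.514 and 0.217 across genes, against -0.643 to 0.222 for other pairs. Deviations from a group mean cancel within the group. Positive values for same-numbered pairs therefore force other pairs down, so this contrast is partly built in. All same-numbered values exceeded the minimum of 0.1 set for pairing, so the numbers were taken to pair the libraries, although the labels do not say what they share. This minimum does not set the pair numbered 3 apart, because its r of 0.217 lay below the highest of the other pairs, 0.222. Over all genes tested, CharmeKO 3 correlated with WT 2 at r = 0.953 and with WT 3 at r = 0.951. No pair of libraries agreed within sampling noise.

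The members and gene lists were chosen with earlier results of these data known. Named genes are the 5 members, Plg and Lrp1, up to 3 genes per list and 5 serpins with the largest change and a mean of at least 100 normalised reads, and the 3 genes nearest each member in profile. A gene that the rule named and a ratio that used it are not reported here. Plots were drawn with matplotlib 3.10.9 in Python 3.11.15. Native CFs were not analysed here. Depth (38330019 to 46797446 reads) sets a floor of 3 reads, or 0.0641 to 0.0783 CPM, for counting error only.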

Additional observations from a re-analysis of the deposited data

How the results depend on the processing

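No member passed the adjusted threshold under any of its 17 alternatives, and no gene of the plasminogen system list did either. Over all genes the number past the threshold was 0 with limma and edgeR in every setting, 8 with DESeq2 and 64 (0.401%) with DESeq2 and the replicate block, and no member was among them. The replicate block left the limma estimates as they were (Plat 0.67, Plaur -0.47) and changed no call on a member, a listed gene or a ratio. Plat kept its direction in all 17 alternatives. Serpinf1 reversed to 0.0656 with edgeR, 0.06097 with edgeR on DESeq2 size factors and 0.05877 with DESeq2. Leaving out one library at a time, the log2 difference ranged from -0.88 to 0.52 for Plau, 0.40 to 1.14 for Plat, -1.13 to 0.15 for Plaur, -0.83 to 1.38 for Serpine2 and -0.56 to 0.34 for Serpinf1. The ratios ranged from -0.84 to 0.97 for Plau to Plaur (reversed without WT 1 or CharmeKO 2), -1.90 to 0.063 for Plau to Plat (without WT 3) and -0.95 to 1.30 for Plat to Serpine2 (without WT 3 or CharmeKO 3). The cause of these reversals was not tested. The printed 95% intervals come from the fit without the block, whose standard error of 0.77 for Plaur and 0.52 for Plat compares with 0.21 and 0.31 with it.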
